A study of Mus musculus with 20 samples.

Results

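The RAD21 sites described here were called as peaks only in mouse embryonic stem cells that were depleted of CTCF and knocked out for Maz. They were chosen by the positions of the RAD21 peak calls, as the peaks of the ΔCTCF/ΔMAZ list that shared no base with any RAD21 peak of the other 3 conditions, and 792 of the 6400 peaks of that list met the rule (12.4%, 95% Wilson interval 11.6 to 13.2). The share depended on the limits set, at 4.60% when the ΔCTCF/ΔMAZ peaks had to reach a −log10 q of 5, 6.64% when every list had to, 20.7% when a reciprocal overlap of 50% was required and 31.4% when the other RAD21 lists were cut to their strongest 6400 peaks. The remaining 5608 peaks, which overlapped a RAD21 peak of at least 1 other condition, served for comparison, and so did the 817 of them that were shared with the ΔCTCF list alone. Of the 5608, 4099 were called in all 4 conditions. These 4099 had a median fold enrichment of 8.11, and 94.9% of them overlapped a CTCF peak of WT cells, defined below. Values for the rest therefore mostly describe RAD21 peaks called in every condition, nearly all at CTCF peaks.

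Chromatin immunoprecipitation with sequencing was carried out for CTCF, MAZ and RAD21 in E14 embryonic stem cells in which CTCF carried a degron, a tag through which the plant hormone auxin triggers destruction of the protein. Untreated degron cells are called WT, degron cells after 2 days of auxin ΔCTCF, untreated Maz knockout degron cells ΔMAZ, and Maz knockout degron cells after 2 days of auxin ΔCTCF/ΔMAZ; all carried the degron fusion, all were grown with LIF and 2i, and the knockout was a single clone labelled B2. One peak list was available for each antibody in each condition, so no RAD21 value below has a replicate check, and every interval covers counting error over the peaks of 1 library only. RAD21 peaks numbered 20371 for WT, 17912 for ΔCTCF and 20872 for ΔMAZ, against the 6400 of ΔCTCF/ΔMAZ. Removal of the factors was visible in their own lists: CTCF peaks fell from 26394 (WT) and 26053 (ΔMAZ) without auxin to 2381 (ΔCTCF) and 2570 (ΔCTCF/ΔMAZ) with it, and MAZ peaks numbered 6265 in WT, 6759 in ΔCTCF and 33 in either knockout condition. CTCF was therefore depleted rather than absent after auxin.

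RAD21 is the kleisin subunit of cohesin, the ring complex that folds chromatin into loops by extrusion. CTCF, a zinc-finger protein, blocks the moving ring at its oriented DNA sites and is the best known determinant of where cohesin accumulates. MAZ is another zinc-finger protein; it recognizes G-rich DNA, mostly at promoters, and is one of several factors proposed to share the barrier role.

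The sites printed were chosen as the strongest of their kind among those at most 300 bp wide that touched no annotated exon. Not every chromosome was considered for this choice. The peaks below are shown in full, so that the sequence under the cohesin signal can be read beside the values that follow. Each is the plus strand of mm10 (GRCm38), 5′ to 3′; capitals mark GGGAGGG, the core of the MAZ site, GGGCGG, the GC box bound by SP and KLF proteins, or the CTCF core letters AGGGGGCGC and AGGTGGCAG, on either strand.
Trim59 promoter, with MAZ peaks in WT and ΔCTCF, chr3:69044867-69045146: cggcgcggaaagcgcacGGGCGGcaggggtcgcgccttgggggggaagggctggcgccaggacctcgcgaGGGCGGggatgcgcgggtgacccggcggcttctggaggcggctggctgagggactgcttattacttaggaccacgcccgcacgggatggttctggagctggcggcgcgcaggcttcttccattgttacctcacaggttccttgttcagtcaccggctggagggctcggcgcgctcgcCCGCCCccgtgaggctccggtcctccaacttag
Clybl promoter, without a CTCF or MAZ peak, chr14:122181459-122181661: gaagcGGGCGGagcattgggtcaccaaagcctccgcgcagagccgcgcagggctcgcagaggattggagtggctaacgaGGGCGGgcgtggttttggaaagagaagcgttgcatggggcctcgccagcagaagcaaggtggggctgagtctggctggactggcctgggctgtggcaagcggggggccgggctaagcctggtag
Lrfn4 promoter, with MAZ peaks in WT and ΔCTCF and the MAZ letters, chr19:4615787-4616017: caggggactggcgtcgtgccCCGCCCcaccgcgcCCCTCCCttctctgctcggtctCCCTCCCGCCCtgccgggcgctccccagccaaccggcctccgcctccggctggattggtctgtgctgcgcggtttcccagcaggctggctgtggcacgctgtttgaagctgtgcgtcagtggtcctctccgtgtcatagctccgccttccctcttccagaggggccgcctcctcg
Between genes near Tnfsfm13, with MAZ peaks in WT and ΔCTCF, chr11:69704329-69704542: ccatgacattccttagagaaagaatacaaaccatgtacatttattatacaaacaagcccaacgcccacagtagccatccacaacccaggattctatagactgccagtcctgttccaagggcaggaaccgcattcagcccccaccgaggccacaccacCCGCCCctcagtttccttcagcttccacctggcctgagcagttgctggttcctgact
Between genes near Gm23845, without a CTCF or MAZ peak, chr4:129877280-129877560: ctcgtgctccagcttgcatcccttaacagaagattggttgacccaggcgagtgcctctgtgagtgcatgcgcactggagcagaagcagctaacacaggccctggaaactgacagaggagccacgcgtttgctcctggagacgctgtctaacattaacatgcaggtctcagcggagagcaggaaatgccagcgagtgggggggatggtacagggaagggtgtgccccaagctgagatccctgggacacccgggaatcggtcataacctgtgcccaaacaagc
Between genes near Pard6b, with CTCF peaks in WT and ΔMAZ and a MAZ peak in ΔCTCF, chr2:168115066-168115324: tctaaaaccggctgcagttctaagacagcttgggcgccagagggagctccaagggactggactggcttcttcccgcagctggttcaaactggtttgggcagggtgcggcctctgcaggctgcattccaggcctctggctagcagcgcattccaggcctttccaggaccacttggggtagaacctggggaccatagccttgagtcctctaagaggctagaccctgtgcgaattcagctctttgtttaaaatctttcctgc

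The Trim59 peak held 3 GC boxes, the Clybl peak 2, and the Lrfn4 peak 2 copies of the MAZ letters beside 2 GC boxes, with a G+C content of 70%, 66.5% and 70.6%. The intergenic peak near Gm23845, the strongest of all, held none of these letters, and the peak near Pard6b held no exact CTCF core although CTCF was called there.

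The sites were weak and narrow peaks, which is described without a test because the failure to be called elsewhere is itself related to strength. Fold enrichment, the height of the signal at the summit over its local background with 1 added to both, ran from 1.93 to 10.5 with a median of 5.04, against a median of 6.93 (95% interval 6.87 to 7.03) and a maximum of 59.97 in the rest of the list. Solving the deposited fold and p-value for the fragment depth gave a median of 11 overlapping fragments at the summit, against 16 in the rest. Peak width had a median of 202 bp (95% interval 197 to 205) against 255 bp (252 to 258), and 253 of the 792 sites (31.9%) were as narrow as the peak caller allowed, 183 bp, against 520 of 5608 (9.27%). Only 212 sites (26.8%) reached a −log10 q of 5, against 78.4% of the rest. The 817 peaks shared with ΔCTCF alone lay in between, with a median fold of 5.39 and a median width of 221 bp.

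**Figure D1:**
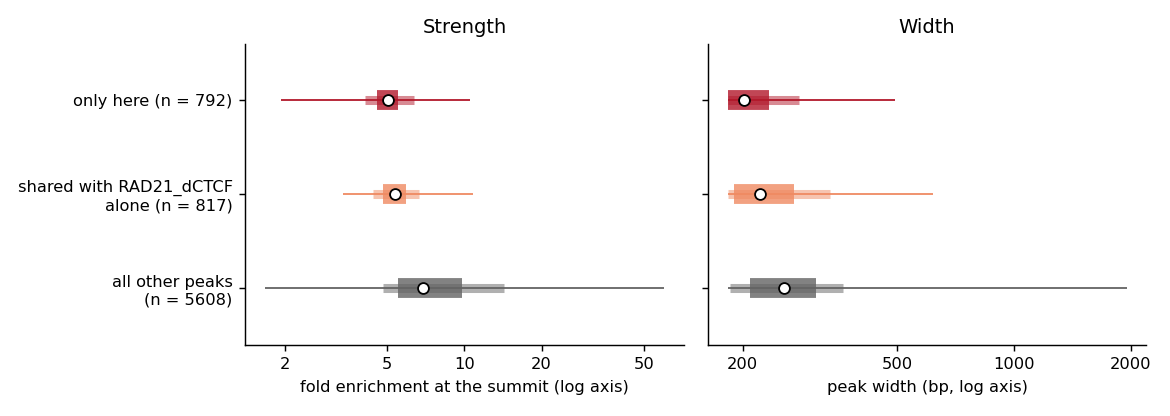
Fold enrichment at the summit (left) and peak width in bp (right), both on log axes, for the 792 ΔCTCF/ΔMAZ-only sites, the 817 peaks shared with ΔCTCF alone, and all 5608 other peaks, which include those 817. Circles are medians, thick bars the middle 50% of peaks, paler bars the 10th to 90th percentiles and thin lines the full range; the sites found only here have the lowest median in both plots, 5.04 and 202 bp.

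When the 6400 peaks were cut into 5 equal groups by fold enrichment, the sites made up 32.4% of the weakest 1280 peaks (415 peaks), 19.6% of the next group, 8.20% of the third, 1.56% of the fourth and 1 peak of the strongest group. That peak, chr4:129877280-129877560, lay between genes 18158 bp upstream of the small nuclear RNA gene Gm23845 and had a fold of 10.5, which ranked 1228th in the list. The next strongest site (fold 9.61) was 155 bp downstream of a start of A930032L01Rik, inside Ptch1, which encodes the Hedgehog receptor, at chr13:63567820-63568037. A site in a coding exon of Zfhx2, a homeobox gene with antisense genes on its other strand, at chr14:55062658-55062924 and a site 98 bp into Sgcb, which encodes a dystrophin-associated sarcoglycan, at chr5:73647536-73647823 both had a fold of 8.70. They were followed by Trim59 (8.34), which encodes a RING-finger protein, and by Ubtf, which encodes the RNA polymerase I factor UBF, Prkag2, which encodes a regulatory subunit of the AMP-activated kinase, and a peak between genes near the noncoding gene Gm28086, each at 8.24. An intron of the phospholipase D family gene Pld3 came next at 7.90, and 5 sites were tied at 7.78: the promoters of Zc3h13, whose product takes part in m6A RNA methylation, and of the receptor gene Tnfrsf23, the shared promoter of Ighmbp2 and Mrpl21, and introns of Gm31415 and Lrch4.

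**Figure D2:**
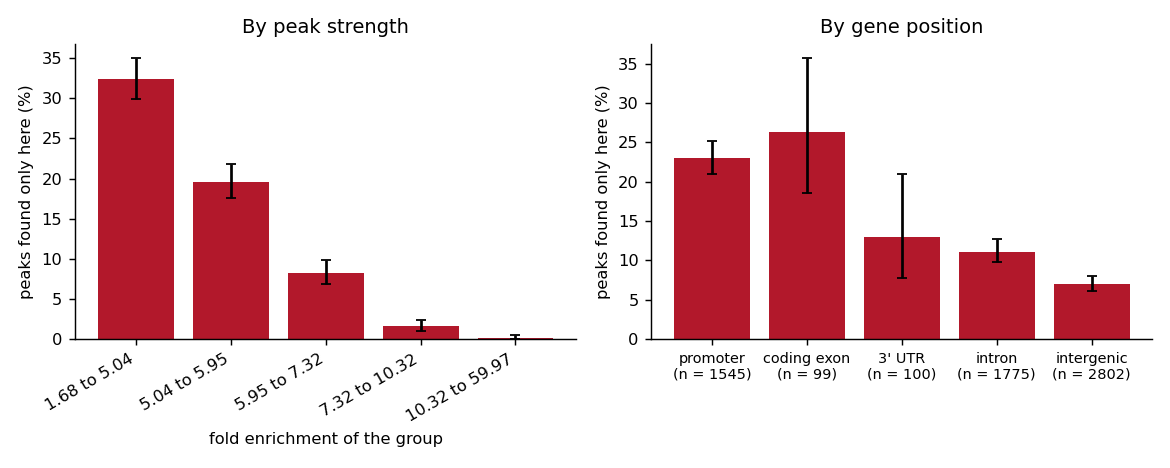
Share of the ΔCTCF/ΔMAZ list that was found only there (%, bars from 0, 95% Wilson intervals), by fold enrichment in 5 groups of 1280 peaks (left) and by position of the summit in the gene annotation (right, n peaks of the list in each class). The share falls from 32.4% in the weakest group to 1 of 1280 peaks in the strongest, and is 23.0% at promoters against 6.96% between genes.

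The widest sites were not the strongest. The widest, 493 bp, lay between genes 13072 bp from the riboflavin transporter gene Slc52a3 (fold 5.14), and the next, 490 bp, stood upstream of the phospholipase gene Ddhd1 (fold 5.95) under MAZ peaks of WT and ΔCTCF. A 471 bp peak covered a coding exon of Suz12, which encodes a core subunit of Polycomb repressive complex 2 (fold 5.69), and overlapped a CTCF peak of ΔMAZ. The others were a 440 bp peak in an intron of the prostaglandin synthase gene Ptges (5.93) and a 408 bp peak in an intron of Ino80dos (5.14).

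The gap from a site to the nearest RAD21 peak of another condition had a median of 9585 bp (95% interval 8851 to 11021). A RAD21 peak of ΔCTCF lay within 500 bp of 59 sites, one of ΔMAZ within 500 bp of 24 and one of WT within 500 bp of 20, and 74 sites (9.34%) had one from any of the lists. At the edge of the rule, the sites nearest to exclusion were in an intron of Rgs20, 7 bp from a peak (fold 4.32), and in an intron of Lats2, 8 bp from one (fold 4.12), while peaks at Dgkg (4.58) and Sox12 (4.56) were left out by overlaps of 6 bp. In all, 12 sites stood within 50 bp of another list's peak and 18 peaks were left out by an overlap under 50 bp.

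Larger distances told the sites apart from the rest in the same way as overlap did. A CTCF peak of WT lay within 10 kb of 322 sites (40.7%), of 84.3% of the rest and of 40.02% of the peaks shared with ΔCTCF alone. A MAZ peak of ΔCTCF lay within 1 kb of 183 sites (23.1%), of 11.5% of the rest and of 31.8% of the peaks shared with ΔCTCF alone. Another peak of the list was seldom close, since 32 of the sites (4.04%) had one within 1 kb against 4.62% of the rest, a difference whose interval included 0 (−1.88 to 1.11 points).

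A missing call is not a measured absence of RAD21, and the libraries differed in depth. The lowest local background among the peaks, which scales with depth, was 1.18 fragments in ΔCTCF/ΔMAZ, 1.3003 in WT, 1.59 in ΔMAZ and 3.198 in ΔCTCF. At their own fold and these backgrounds, 789 of the 792 sites would have passed the weakest −log10 p of each of the other lists. That count was nearly fixed in advance, because the ΔCTCF/ΔMAZ list had the lowest background and the highest minimum −log10 p. The minimum was 4.32, against 4.03 in WT, 3.97 in ΔMAZ and 3.77 in ΔCTCF. When the weakest 5% of each list were set aside, 459 would have passed in WT, 647 in ΔMAZ and 779 in ΔCTCF. The folds come from the library in which the sites were called, so these counts do not show whether a site could have been called elsewhere. The signal at the sites in the other libraries was not analysed here.

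The sites lay at promoters more often than the rest of the list. The summit was within 1 kb of an annotated transcription start site (TSS) at 356 of the 792 sites (44.9%, 95% interval 41.5 to 48.4) and at 1189 of 5608 other peaks (21.2%, 20.2 to 22.3), a difference of 23.7 percentage points (95% interval 20.1 to 27.4); over the whole list the share was 24.1%. Pooled over the 5 strength groups the difference was 16.7 points (12.8 to 20.6), but it varied between groups. In the weakest, 40.2% of the sites and 32.7% of the rest were at promoters, and in the second 49.8% and 29.0%. The third had 47.6% against 20.1%, the fourth 70% (14 of 20 sites) against 16.2%, and the fifth held 1 site. The pooled difference was 27.2 points with a −log10 q of 5 required of the ΔCTCF/ΔMAZ peaks and 26.96 with it required of every list. Sites between genes were correspondingly fewer, 195 (24.6%) against 2607 (46.5%), and 197 sites (24.9%) were in introns against 28.1% of the rest, an interval of the difference that reached 0 (−6.39 to 0.0712 points). Coding exons away from promoters held 26 sites (3.28% against 1.302%, a difference of 1.98 points with an interval of 0.896 to 3.49).

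Among other RAD21 peaks with little CTCF the promoter share was closer to that of the sites. Of the peaks shared with ΔCTCF alone, 46.4% were at promoters, which differed from the sites by −1.44 points (95% interval −6.29 to 3.42). Among all peaks of the list that overlapped no peak of any CTCF list, 351 of 775 sites (45.3%) and 584 of 1404 other peaks (41.6%) were at promoters, a difference of 4.15 points within strength groups whose interval included 0 (−0.265 to 8.57). That difference excluded 0 under 3 changes of strength limits, at 9.89 points (2.04 to 17.7) with the −log10 q of 5 in ΔCTCF/ΔMAZ, 8.71 (1.61 to 15.8) with it in every list and 15.3 (10.5 to 20.02) with the strongest 6400 peaks of each other RAD21 list, and in the fourth strength group it was 14 of 20 sites against 34.5% of 110 other peaks. Of the 4179 peaks in the rest of the list with a CTCF peak of WT, 590 lay at promoters and 3589 elsewhere. This comparison without CTCF peaks was chosen after seeing the data.

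At promoters the summits sat at a median of 108.5 bp from the start site (95% interval 95 to 130), against 133 bp (122 to 145) in the other promoter peaks. The summit was downstream of the start in 165 of the 356 (46.3%) and in 37.3% of the other promoter peaks, a difference of 9.09 points (3.27 to 14.9); in the promoter peaks shared with ΔCTCF alone it was 44.1%, 2.28 points from the sites with an interval that included 0 (−4.89 to 9.43). The nearest gene was protein coding for 316 of the 356 (88.8%) and for 879 of 1189 (73.9%), a difference of 14.8 points (10.4 to 18.7), and for 83.4% of the promoter peaks shared with ΔCTCF alone, a difference of 5.39 points (0.353 to 10.4); lincRNA genes accounted for 6 sites (1.69%) and for 119 other peaks (10.0%). Starts of protein-coding genes on both strands lay within 1 kb of 36 sites (10.1%) and of 59 other promoter peaks (4.96%), a difference of 5.15 points (2.10 to 8.88). Such shared promoters included Ighmbp2 with Mrpl21, a helicase gene beside a mitochondrial ribosomal gene, and Mrpl9 with Oaz3 (fold 7.32). The peaks shared with ΔCTCF alone had 9.23% such promoters, which the interval of the difference did not separate from the sites (−3.43 to 5.25 points).

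In all, 439 genes had a site within 1 kb of a start, 368 of them protein coding (1.68% of 21911 protein-coding genes), against 987 (4.50%) with another peak of the list. No gene held more than 2. The genes with 2 sites were Adpgk, which encodes an ADP-dependent glucokinase, Psmd6, which encodes a proteasome lid subunit, and the divergent pairs Dnaaf1 with Hsdl1 and Exosc7 with Zdhhc3. The folds of those 8 sites ran from 3.85 to 5.95.

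Gene families were compared by lists that had been chosen with earlier results of these data known, so the counts are descriptions, to be read against the 1.68% of all protein-coding genes with a site and the 4.50% with another peak. Of 22 genes for CTCF, MAZ and related zinc-finger factors, 21 were in the annotation and 2 had a site near a start, Sp3 (fold 5.24), a GC-box factor, and Yy1 (5.49), a factor that also binds promoters and loops; none had another peak of the list. Of 83 mitochondrial ribosomal protein genes 4 had a site, Mrpl21 (7.78), Mrpl9 (7.32), Mrps10 (5.04) and Mrpl53 (4.58), and 7 had another peak. Of 89 cytosolic ribosomal protein genes 3 had a site, Rpl7 (6.56), Rpl7a (4.17) and Rps15 (3.85), and 10 had another peak. Among 403 Zfp zinc-finger genes 7 had a site (1.74%, close to the 1.68% of all protein-coding genes), led by Zfp40 (7.32) and Zfp329 (6.60), and 12 had another peak (2.98%).

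Translation factors gave Eif5 (5.99) and Eif4ebp1 (5.16), of 79 genes (2.53%), and 4 had another peak. The germ layer genes gave Mixl1 (5.39), a mesendoderm homeobox gene, and Nes (4.46), which encodes the neural filament nestin, of 26 genes, and none had another peak. The list of cyclins and cell division genes gave Ccnd3 (4.24) and Cdc40 (5.49), which despite its name is a splicing factor, of 74 genes (2.70%), and 4 had another peak. Single genes came from the lists of 89 histone genes (Hist2h4, 3.66), 86 splicing genes (Hnrnpf, 5.20), 34 Polycomb and Trithorax genes (Ezh1, 3.95), 108 chromatin modifiers (Smarca4, which encodes the BRG1 remodeler, 4.62) and 54 proteasome genes (Psmd6), in which 1, 9, 1, 3 and 4 genes had another peak of the list. Of 1339 small RNA genes picked by symbol, such as those starting with Mir, Rnu or Snord, 3 had a site (0.224%). They were Mir1893 (5.27), Mir5131 (5.95) and Mir8102 (5.01), and 17 small RNA genes had another peak (1.27%). Small RNA genes are not protein coding, so these shares are to be read against all 55304 genes instead. Of those, 439 (0.794%) had a site and 1382 (2.499%) another peak. The small RNA list leaves out small RNA genes with Gm symbols, among which the microRNA gene Gm47286 (6.41) and the snoRNA gene Gm24000 (6.87), named after their values were seen, also had a site. Other genes had a start within 1 kb of the same peaks, H1fx and Gm5577 beside Gm47286, and Ccm2 beside Gm24000. No site was near a start of any of the 22 cohesin and cohesin regulator genes, 30 pluripotency factors, 39 Hox genes, 40 DNA repair genes or 20 p53 targets, of which 3, 3, 5, 3 and 1 had another peak of the list.

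Few of the sites carried CTCF, by a margin that depended on how the other RAD21 lists were cut. A CTCF peak of WT overlapped 14 of them (1.77%, 95% interval 1.06 to 2.95) and 4179 of the 5608 other peaks (74.5%), where the whole list stood at 65.5%. The counts for the other CTCF lists were 6 sites for ΔCTCF (0.758%, against 31.9% of the rest and 28% of the list), 14 for ΔMAZ (1.77%, against 74.6% and 65.6%) and 5 for ΔCTCF/ΔMAZ (0.631%, against 35.8% and 31.5%). A CTCF peak from any condition touched 17 sites (2.15%), 74.96% of the rest and 3.18% of the peaks shared with ΔCTCF alone. Within strength groups the WT CTCF overlap differed from the rest by −49.1 points (95% interval −51.3 to −46.8), whereas the peaks shared with ΔCTCF alone had 2.20%, −0.436 points from the sites (−1.88 to 0.991). With only the strongest 6400 peaks of each other RAD21 list in the rule, 2007 peaks qualified and 16.7% of them had a WT CTCF peak. With a reciprocal overlap of 50% required of RAD21 and CTCF peaks alike, 3.404% of 1322 did. The nearest WT CTCF peak was at a median of 14726 bp.

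The strongest of the 14 sites that overlapped CTCF of WT was the intergenic peak near Pard6b printed above (fold 6.41), followed by the promoters of Ift46 (5.95), an intraflagellar transport gene, and Lmtk2 (5.49), a kinase gene, the promoter of Nkiras2 (5.25), which encodes an inhibitor of NF-κB signalling, and intergenic peaks near Gm2566 (5.84), Vdac1 (5.43), the homeobox gene Gbx2 (5.12) and Gm45572 (5.04). Ift46 and Nkiras2 carried CTCF peaks in all 4 conditions and MAZ peaks in WT and ΔCTCF. A peak at Gm10717 (1.93) and one near Pak3 (2.07) also carried CTCF in every condition, but they stood on local backgrounds of 36.4 and 32.9 fragments, against a median of 1.27 over the sites, and 4 sites in all had a background above 3.

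A MAZ peak of ΔCTCF, the condition with Maz intact and CTCF depleted, overlapped 125 sites (15.8%, 95% interval 13.4 to 18.5) and 516 other peaks (9.20%, 8.47 to 9.99), with 10% over the whole list. Other limits changed the set of sites too. With a reciprocal overlap of 50% required of RAD21 and MAZ peaks alike, the share was 7.56% of the 1322 peaks that then qualified. It was 24.1% of 212 sites when the ΔCTCF/ΔMAZ peaks had to reach a −log10 q of 5. A MAZ peak of WT overlapped 118 sites (14.9%) and 481 others (8.58%), with 9.36% over the list. MAZ in either list was found at 151 sites (19.1%), 11.6% of the rest and 30.7% of the peaks shared with ΔCTCF alone, and MAZ in both at 92 sites (11.6%), 6.17% and 16.8%. The lists from knockout cells, with 33 peaks each, overlapped no site (0 of 792, Wilson upper limit 0.483%), and 19 (ΔMAZ) and 18 (ΔCTCF/ΔMAZ) of the rest, or 0.297% and 0.281% of the list. Any CTCF or MAZ peak touched 163 sites (20.6%), against 83.2% of the rest and 32.7% of the peaks shared with ΔCTCF alone.

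**Figure D3:**
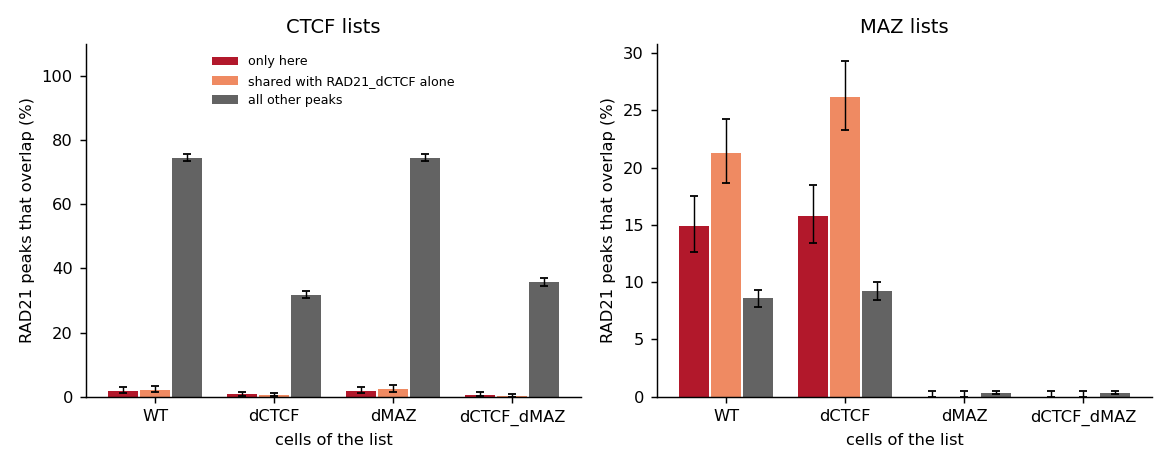
Percentage of RAD21 peaks of ΔCTCF/ΔMAZ cells that overlapped a peak of each CTCF list (left) and MAZ list (right), for the 792 sites found only there, the 817 peaks shared with ΔCTCF alone and all 5608 other peaks, which include those 817; bars start at 0, error bars are 95% Wilson intervals, and the axes differ between plots. CTCF overlap is under 2% of the sites in every list, and MAZ overlap of the sites (15.8% for ΔCTCF) lies below that of the peaks shared with ΔCTCF alone (26.2%) and above that of all others (9.20%).

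The direction of the MAZ comparison depended on what the sites were set against. Against the whole rest of the list the difference was 6.58 points (95% interval 4.08 to 9.38), and 0.301 points (−2.68 to 3.28) within strength groups. The groups behind that last value went opposite ways, with MAZ at 12.8% of the sites against 20.9% of the rest in the weakest, 21.9% against 8.26% in the third and 40% (8 of 20 sites) against 4.37% in the fourth. It was 14.3 points (8.41 to 20.2) when the ΔCTCF/ΔMAZ peaks had to reach a −log10 q of 5, 11.01 (6.48 to 15.5) when every list had to, and 10.95 (8.71 to 13.2) when the other RAD21 lists were cut to their strongest 6400 peaks. Against the peaks shared with ΔCTCF alone, of which 214 (26.2%) had a MAZ peak, the sites were lower by 10.4 points (−14.3 to −6.45), and the value within strength groups was −10.1 points (−14.1 to −6.04). Among peaks without any CTCF peak, 122 of 775 sites (15.7%) and 383 of 1404 others (27.3%) had a MAZ peak, a difference within strength groups of −11.1 points (−14.6 to −7.55). That gap was narrower among the sites that passed a −log10 q of 5, at −2.85 points with an interval that included 0 (−9.63 to 3.93). In the 3 weakest strength groups the sites without CTCF had MAZ at 13.0%, 16.5% and 20.4%, against 27.6%, 26.6% and 27.7% of the other peaks without CTCF; in the fourth group the order was the opposite, 8 of 20 sites (40%) against 30 of 110 other peaks (27.3%), with intervals that overlapped.

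**Figure D4:**
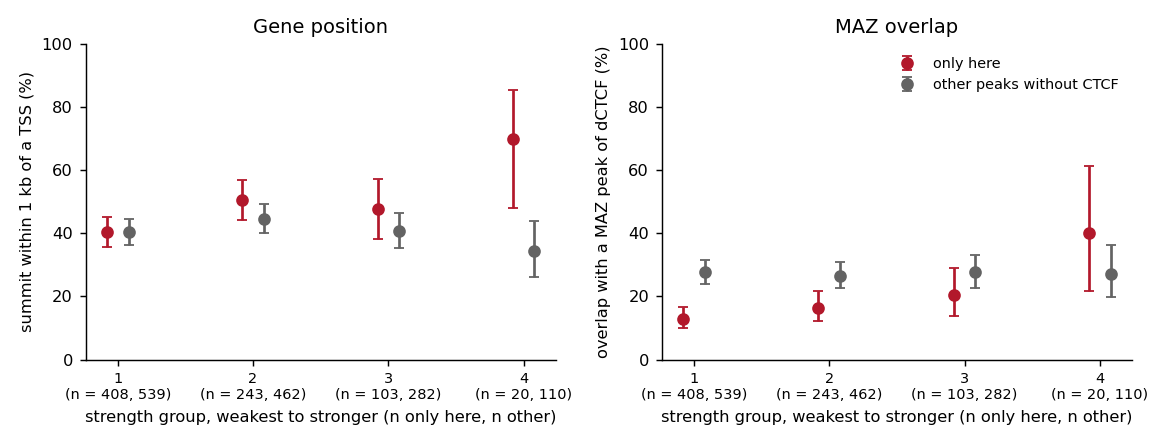
Peaks of the ΔCTCF/ΔMAZ list that overlapped no CTCF peak of any condition, in the 4 weaker of 5 strength groups (horizontal axis, with the number of sites found only there and of other peaks); the fifth group held 1 site and is not drawn. Points are percentages with 95% Wilson intervals for summits within 1 kb of a TSS (left) and for overlap with a MAZ peak of ΔCTCF (right). The intervals of the promoter shares overlap between the classes in the 3 weakest groups, and in the weakest the MAZ share of the sites is 13.0% against 27.6%.

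MAZ at the sites was a promoter feature. Of the 125 sites with a MAZ peak of ΔCTCF, 109 (87.2%, 95% interval 80.2 to 92.0) were at promoters, against 247 of the 667 without (37.0%). At promoters 30.6% of the sites and 29.9% of the other peaks had MAZ, and away from promoters 3.67% and 3.62%. In the peaks shared with ΔCTCF alone these shares were 42.5% and 12.1%. The sites differed from them by −11.9 points at promoters (−18.6 to −4.90) and −8.43 points elsewhere (−12.1 to −4.92). Within strength groups the difference from the rest was −5.95 points at promoters (−11.9 to −0.0334) and −3.08 points elsewhere (−5.27 to −0.893). With the MAZ peaks of WT the values were −3.30 points (−9.08 to 2.48), an interval that included 0, and −2.38 points (−4.46 to −0.301). The strongest MAZ-bound sites were A930032L01Rik, Trim59, Ubtf, Prkag2 and Cdc42bpb, a kinase gene (fold 7.63), all with MAZ peaks in WT and ΔCTCF. The median distance between the RAD21 and the MAZ summit was 109 bp (95% interval 92 to 125), against 91 bp (84 to 102) in the rest, and with the MAZ peaks of WT the order was the opposite, 84.5 bp (60 to 104) against 97 bp (85 to 113). The MAZ peaks of ΔCTCF under the sites had a median fold of 6.37, against 6.19 under other RAD21 peaks of the list and 5.91 where no RAD21 peak of the list lay; for the MAZ peaks of WT these were 5.33, 5.52 and 5.03. MAZ-bound and MAZ-free sites had median RAD21 folds of 5.39 (5.02 to 5.49) and 5.04.

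The DNA under the summits was G+C rich. In the 200 bp around the summit the median G+C content was 56.5% (95% interval 56 to 58) at the sites, 52% (52 to 52.5) in the rest and 56% in the peaks shared with ΔCTCF alone. Promoter sites had 65.5% (64 to 67) against 62.5% (61.5 to 63.5) in other promoter peaks, and sites elsewhere 52.5% (52 to 53.5) against 51%. A CpG-island-like composition, a CpG observed to expected ratio of at least 0.6 with a G+C content of at least 50%, was met by 292 sites (36.9%) and 1120 other peaks (19.97%), a difference of 16.9 points (13.4 to 20.5), and by 39.5% of the peaks shared with ΔCTCF alone, −2.67 points from the sites (−7.39 to 2.08). Repeat-masked sequence covered at least 50% of the window at 41 sites (5.18%) against 8.22%.

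**Figure D5:**
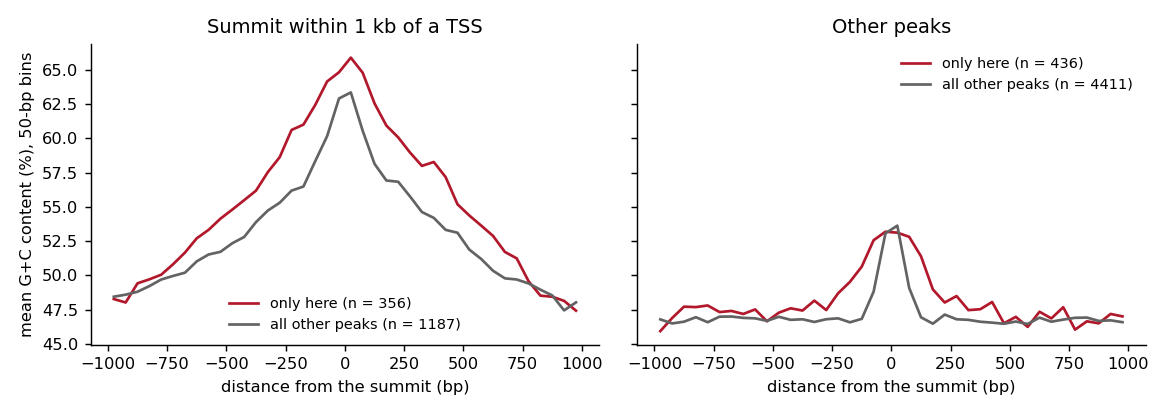
Mean G+C content (%) in 50-bp bins against distance from the RAD21 summit (bp), for peaks with the summit within 1 kb of a TSS (left) and all others (right), for sites found only in ΔCTCF/ΔMAZ cells and for the other peaks of the list; the vertical axis does not start at 0. In the bin centred 25 bp right of the summit the promoter sites reach 65.9% against 63.4% in the other promoter peaks, and the sites elsewhere 53.1% against 53.6%.

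Exact letters were searched on both strands of the same 200-bp windows and of 200-bp windows 500 to 700 bp to either side. A match is a description of the sequence, not of a bound site. GGGAGGG, the MAZ letters, occurred at 109 sites (13.8%, 95% interval 11.5 to 16.3), at 8.88% of the other peaks and at 9.48% of the list, and the flanks of the sites had 11.9%, a difference of 1.89 points whose interval included 0 (−0.897 to 4.87). Within strength groups the difference from the rest also included 0 (2.59 points, −0.122 to 5.30), and the peaks shared with ΔCTCF alone held the letters in 14.9%, against 8.996% of their flanks. Of all 21938 protein-coding promoters, in windows centred on the first start, 17.9% held it, against 17.4% of the promoter sites. Sites with a MAZ peak had it in 25.6% (32 of 125) and sites without in 11.5%. The wider G-rich pattern GGGGNGGGG, some copies of which contain the MAZ letters or the GC box, was added after the values were seen and occurred at 12.8% of the sites, 9.03% of their flanks and 7.45% of the rest.

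The GC box GGGCGG was the most frequent of the letters searched and exceeded the flanks by the widest margin, at 251 sites (31.7%) against 10.9% of their flanks, a difference of 20.8 points (17.2 to 24.4), and against 17.0% of the rest. The peaks shared with ΔCTCF alone had it in 31.1%, against 11.1% of their flanks. At promoter sites it was found in 53.4% (95% interval 48.2 to 58.5), against 43.4% of other promoter peaks (40.6 to 46.2) and 41.5% of all protein-coding promoters. The median G+C content of these windows had the same order, 65.5%, 62.5% and 59.5%. Flanks of promoter sites were also poorer in G+C, at a mean of 51.7% in the bin 675 bp left of the summit. The bin 25 bp right of it had 65.9%. Whether the GC box differs at equal G+C content was not tested. Away from promoters 14.0% of the sites held it, 4.24% of their flanks and 9.89% of the rest. The ETS letters CCGGAAG occurred at 5.68% of the sites and 1.39% of their flanks, and at promoter sites in 10.4%, against 9.72% of all promoters. The CREB letters TGACGTCA were found at 11 sites (1.39% against 0.316% in flanks), all at promoters, the YY1 letters ATGGCGGC at 17 (2.15% against 0.505%) and the NRF1 letters GCATGCGC at 13 (1.64% against 0.253%). At promoter sites the 95% intervals of these shares included the share of all promoters, 3.09% against 2.06% for CREB, 3.65% against 3.12% for YY1 and 2.53% against 2.74% for NRF1.

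Away from promoters, several letters exceeded their flanks, among them the GC box, the NRF1 letters at 4 of 436 sites (0.917% against 0.115%) and those of 2 pluripotency factors: TCAAGGTCA of ESRRB at 10 of 436 sites (2.29%, 95% interval 1.25 to 4.17) against 0.688% of flanks and 0.837% of the other peaks there, and ATGCAAAT of OCT4 also at 10, against 0.573% of flanks and 1.58% of the other peaks. Over all positions the peaks shared with ΔCTCF alone had the OCT4 letters in 2.45% and the ESRRB letters in 2.20%, against 1.77% and 1.39% of the sites. The CTCF core letters occurred at 8 sites (1.01%), 0.821% of their flanks and 11.3% of the rest, and a TATA box, TATAAAA, at 11 sites (1.39%) against 3.91% of flanks.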

How the data were processed

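ChIP-seq peak lists of 12 samples were analysed; 8 samples without a list were not used here. The authors mapped reads to mm10 with Bowtie2, used SAMtools to drop low-quality reads and PCR duplicates, and ran MACS in its narrow mode. Each list is attached to its own sample, from which calling library by library is inferred. Whether an input control was used is not given in the sources used here. The deposited columns are a fold enrichment (ratio), −log10 p, −log10 q and a score, the last not used; none is spike-in scaled. Depth is unknown apart from the background solved from fold and −log10 p, checked on simulated data together with the overlap functions. GENCODE vM21 basic transcripts gave start sites. Shares carry 95% Wilson intervals, differences Newcombe intervals or Mantel-Haenszel differences over 5 strength groups, medians order-statistic intervals; no p-values were computed. Named sites were the strongest, widest, MAZ-bound, CTCF-bound, clustered, listed and borderline ones. The members and lists were chosen with earlier results of these data known; the comparison without CTCF peaks was added after seeing the data. Python 3.11.15, pandas 2.3.3, SciPy 1.17.1 and pysam 0.24.0 were used.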

Additional observations from a re-analysis of the deposited data

How the results depend on the processing

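Of 73 values recomputed under an alternative, 40 stayed inside the 95% interval of the reported value, 33 moved outside it and 0 changed from an interval on one side of 0 to the opposite sign. The 40 include the values without peaks under a MAZ peak of knockout cells, a setting that removed 0 of the 792 sites and so could not move a value taken over the sites alone. No paired analysis was possible because each condition had 1 RAD21 list, and no library could be left out. When a −log10 q of 5 or more was required of the ΔCTCF/ΔMAZ peaks, the share of the list found only there was 4.60%, 49.1% of those sites were at promoters, 24.1% had a MAZ peak of ΔCTCF, the median fold was 5.97 and width 211 bp, the differences within strength groups were 27.2 points for promoters and 14.3 for MAZ, and those among peaks without CTCF were 9.89 and −2.85. With that limit in every list these values were 6.64%, 47.7%, 18.6%, 6.03, 220 bp, 26.96, 11.01, 8.71 and −3.72. With as many strongest peaks of each other RAD21 list as the list held, 31.4% of peaks qualified, 19.9% of them had MAZ of ΔCTCF and 16.7% CTCF of WT, the median fold was 5.24 and width 210 bp, and the differences were 24.9, 10.95, 15.3 and −5.94 points. With a reciprocal overlap of 50%, required of the MAZ and CTCF peaks too, 20.7% qualified, and 7.56% of these had MAZ and 3.404% CTCF of WT. With gaps up to 500 bp counted as overlap, 11.2% qualified and 19.4% had MAZ. Within 2.5 kb, 51.0% of the sites were near a TSS, and in 100-bp windows 7.45% held GGGAGGG. Under those 3 changes of strength the interval of the MAZ difference against the whole rest excluded 0, which the reported one (0.301) did not, and so did that of the promoter difference among peaks without CTCF (reported 4.15); the interval of the MAZ difference among peaks without CTCF included 0 under both limits on q. The cause of these shifts was not tested. The comparisons without CTCF peaks were chosen after seeing the data.
The sites have a median of 11 fragments at the summit in 1 library, so single sites carry wide counting error; calls at another depth were not tested. The pooled peak intervals do not cover variation between cultures or clones.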
